A study of Homo sapiens with 32 samples.

Results

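Peaks of m6A-seq in transcripts of the ZNF genes, the numbered zinc-finger genes, were described across 4 stages of pancreatic differentiation in 2 human embryonic stem cell lines. The members were all rows of the deposited peak table whose gene symbol is ZNF followed by a number: 1179 of 26104 peaks, in 304 of 7978 genes. H1 and MEL1 cells were sampled at 4 points: undifferentiated (S0), as cells of the posterior foregut (S3), as progenitors of the pancreas (S4), and as β-like cells that are still immature (S6). Each line and stage had 2 preparations, and each of the 16 preparations gave an input library and a library from immunoprecipitation (IP) with an antibody against m6A, 32 libraries in all. The labels name no knockdown or allele for any group. The labels call each preparation a clone with a number, and the study counts them as independent biological samples. The RNA came from whole cultures, so fewer cells of a type and less RNA per cell cannot be told apart.

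The ZNF symbol is given mainly to genes of C2H2 zinc-finger proteins, in which a tandem array of short zinc-binding loops reads DNA sequence. Many of the family in human also carry a KRAB domain, which recruits the corepressor TRIM28 and, through it, the histone methyltransferase SETDB1, and many are known to keep transposable elements silent in embryonic stem cells and early development. The genes arose by tandem duplication and lie in clusters, above all on chromosome 19. m6A is the methylation of adenosine inside mRNA, laid down by the METTL3 and METTL14 complex, read by YTH proteins, and densest in long exons and near stop codons; the zinc-finger arrays are typically coded in a single long last exon.

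Of the 304 ZNF genes, 287 were protein coding by the annotation and 17 were long noncoding RNAs or pseudogenes. Chromosome 19 held 135 of them (44.4%), against 429 of 7674 other genes with a peak (5.59%). A ZNF gene had a median of 3 peaks, against 2 for other genes, and 59 ZNF genes had a single one. ZNF292, with 17 peaks, ZNF106, with 16, and ZNF468, with 15, had the most. The peaks lay well inside the transcripts. Their median listed position was 2551, against 2328 for other peaks, and 1.78% began within the first 200 bases, against 5.66%. The positions are those of the deposited table, within each gene; the table gives no peak width and no chromosome coordinate. A pair of rows, ZNF321P and the readthrough gene ZNF816-ZNF321P, had the same counts in every library. Reads of close paralogs of this family could be split between copies by the mapping, which was not tested.

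The RefSeq promoters of ZNF93, ZNF486 and ZNF737, whose input reads were 0 in every MEL1 library after S0, and of ZNF91, which kept reads there, are shown because the contrast between these genes of chromosome 19 recurs in the results. Each is 300 bases of GRCh38.p14, from 250 before the start of transcription to 50 after it, with the CCAAT motif (CCAAT or, on the other strand, ATTGG) in capitals.
ZNF93, chr19:19900696-19900995, plus strand: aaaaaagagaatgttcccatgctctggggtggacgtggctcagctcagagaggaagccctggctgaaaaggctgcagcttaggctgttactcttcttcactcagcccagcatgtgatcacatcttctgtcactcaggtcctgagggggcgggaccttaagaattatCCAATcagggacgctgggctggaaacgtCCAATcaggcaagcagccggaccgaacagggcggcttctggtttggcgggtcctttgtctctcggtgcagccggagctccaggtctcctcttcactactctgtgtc
ZNF486, chr19:20166964-20167263, plus strand: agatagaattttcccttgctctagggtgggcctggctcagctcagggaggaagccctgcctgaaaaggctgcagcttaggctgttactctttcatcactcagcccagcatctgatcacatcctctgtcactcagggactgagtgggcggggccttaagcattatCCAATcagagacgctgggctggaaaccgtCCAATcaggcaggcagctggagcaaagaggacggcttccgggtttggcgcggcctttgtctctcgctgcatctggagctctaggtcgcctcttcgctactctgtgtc
ZNF737, chr19:20565732-20566031, minus strand: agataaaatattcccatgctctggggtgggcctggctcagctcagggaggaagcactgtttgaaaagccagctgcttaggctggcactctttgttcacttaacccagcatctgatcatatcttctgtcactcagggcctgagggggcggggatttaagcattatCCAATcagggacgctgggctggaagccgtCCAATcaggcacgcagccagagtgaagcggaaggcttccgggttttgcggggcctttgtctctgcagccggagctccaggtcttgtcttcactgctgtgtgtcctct
ZNF91, chr19:23395422-23395721, minus strand: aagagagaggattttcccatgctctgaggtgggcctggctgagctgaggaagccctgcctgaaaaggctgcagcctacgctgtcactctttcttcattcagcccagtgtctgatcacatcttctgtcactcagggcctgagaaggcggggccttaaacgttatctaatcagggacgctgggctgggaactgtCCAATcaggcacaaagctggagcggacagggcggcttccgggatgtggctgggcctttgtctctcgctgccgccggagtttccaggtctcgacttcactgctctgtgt

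The CCAAT motif occurs at 2 places in each of the promoters of ZNF93, ZNF486 and ZNF737 and at 1 in that of ZNF91, and it is present in 34.6% of all 35116 promoters in the table, in 43.8% of 333 promoters of 259 ZNF genes that could be matched by symbol, in 73 of the 146 on chromosome 19, in 35.1% of those of other genes with a peak and in 8 of the 14 of ZNF genes whose reads were lost in MEL1. The promoter of ZNF253 was not used here. The promoters shown hold 10, 10, 8 and 11 CG dinucleotides, against a median of 23 for the ZNF promoters, 20.5 for those on chromosome 19 and 26 for those of the other genes with a peak. The 14 promoters of ZNF genes whose reads were lost in MEL1 (at most 3 in every later library, in input or IP) had a median of 22, above each of those shown. A match is a description of the sequence and was not related to binding.

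Total counts ran from 2652830 to 6879256 in the input libraries and from 2378881 to 15674899 in the IP libraries, with both MEL1 S4 IP libraries (2483580 and 2378881) the shallowest. The H1 S4 input library of replicate 2 stood apart. Peaks more than 8-fold enriched in IP at both S0 and S3, 740 in all and 87 of them in ZNF genes, took 1.14% of its counts, against 0.320% to 0.536% in the other 15 input libraries and 3.67% to 5.35% in the IP libraries. Counts of calls at S4, shares by family and the named stage changes that involve S4 were therefore refitted without that preparation, and these values are given where a call was lost or the value moved most. The stage labels were compared with marker genes. Summed input levels of the foregut markers FOXA1, FOXA2, GATA4, GATA6 and HNF4A were 10.9 to 13.3 CPM (counts scaled to the size of the library) at S0 and 975 to 1017 in H1 and 2922 to 2967 in MEL1 at S3. The pancreatic progenitor markers PDX1, SOX9 and MNX1 did not separate S4 from S3, at 78.3 to 93.0 CPM at S3 and 71.1 to 73.1 at S4 in H1 and 40.4 to 42.5 and 42.4 to 44.6 in MEL1, and at S6 they summed to 23.8 and 25.4 CPM in H1 and 143 and 145 in MEL1. CHGA, GLIS3 and ISL1, of the list for β-like cells, summed to 738 to 821 CPM at S6 in both lines. Nearly all of this was CHGA, at 721 to 810 CPM, with GLIS3 at 9.59 to 16.9 CPM and ISL1 at 0.882 to 3.63. In H1 the same genes already summed to 629 and 495 CPM at S4 and to 233 and 243 at S0. In MEL1 the S4 sums were 69.7 and 65.7 CPM. INS, NEUROD1, NKX6-1, POU5F1 and NANOG have no row in the table used here. The lines differed in other markers. The hepatic markers AFP, VTN and APOA1 summed to 28009 to 65100 CPM in MEL1 at S3 and S4, and to 137 to 440 CPM in H1. At those stages the neural markers SOX1, NES, OTX2 and STMN2 summed to 1911 to 2571 CPM in H1 and to 67.3 to 807 CPM in MEL1. NES made most of the sum in H1, at 1834 to 2507 CPM, and SOX1 was also higher in H1. OTX2 and STMN2 were higher in H1 at S3 but higher in MEL1 at S4. There OTX2 stood at 32.6 and 40.6 CPM in H1 and at 76.1 and 52.7 in MEL1. STMN2 stood at 14.3 and 13.2 CPM in H1 and at 51.3 and 43.9 in MEL1. At S0 the neural list summed to 1193 and 1181 CPM in H1 and to 2115 and 1948 in MEL1. The intestinal list, of 1 gene, stood at 12.4 and 15.0 CPM in H1 and at 441 and 404 in MEL1 at S3. The mesenchymal list, here COL1A1 and PDGFRA, summed to 38.0 and 42.7 CPM in H1 and to 633 and 589 in MEL1 at S4. COL1A1 made most of these sums, at 33.3 and 37.6 CPM in H1 and 630 and 586 in MEL1. PDGFRA went the other way, at 4.69 and 5.08 CPM in H1 and 3.36 and 3.69 in MEL1. SOX2 stood at 825 and 836 CPM in H1 at S3 and at 6.51 and 25.5 CPM in MEL1.

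The first question was whether ZNF transcripts are recovered by the m6A antibody more than other transcripts. At S0, 703 of the 1179 ZNF peaks (59.6%) were enriched in IP over input, against a background of 30.7% of all peaks tested. A peak was called enriched at an adjusted p under 0.1 and at least 2-fold by edgeR's quasi-likelihood test, adjusted over all 26104 peaks. At S3 there were 684 (58.0%, background 30.3%), at S4 405 (34.4%, background 20.8%) and at S6 565 (47.9%, background 28.4%). Peaks depleted in IP took a smaller share of ZNF peaks than of all peaks at each stage. They numbered 54, 74, 101 and 112 at S0, S3, S4 and S6, or 4.58% to 9.50%, against backgrounds of 24.9%, 31.0%, 32.1% and 34.6%. In all, 834 ZNF peaks (70.7%) were enriched at one stage or more, with 39.3% of all peaks as the background, and 315 (26.7%) were enriched at all 4, with 14.9% as the background. At the level of genes, 284 of 304 (93.4%) had a peak enriched at some stage, against 64.8% of other genes. The table holds only regions that the study called as peaks in these libraries, so both sets had been selected for IP signal, and peaks of 1 gene are not independent of each other.

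By stage in the same order, the median log2 IP over input from the fit was 1.66, 1.59, 0.78 and 1.22 for ZNF peaks, and 0.18, -0.02, -0.38 and -0.21 for the other peaks. Since both kinds of library were scaled over the peaks of the table, these are differences relative to the other peaks and not absolute methylation. The same order was seen in each single preparation. In 16 of 16, the median ZNF peak was above the median other peak, by 0.87 to 1.78 on the log2 scale. The mean difference at S0 was 1.47 ± 0.21 and at S3 1.53 ± 0.11, and it was 1.14 ± 0.23 at S4 and 1.37 ± 0.03 at S6 (SD, n = 4 preparations). At S4 the H1 preparations stood at 1.02 and 0.87 and those of MEL1 at 1.35 and 1.33. Without H1 S4 replicate 2 the S4 mean was 1.23, and 400 ZNF peaks (33.9%) were enriched at S4, against 19.5% of all peaks.

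**Figure D1:**
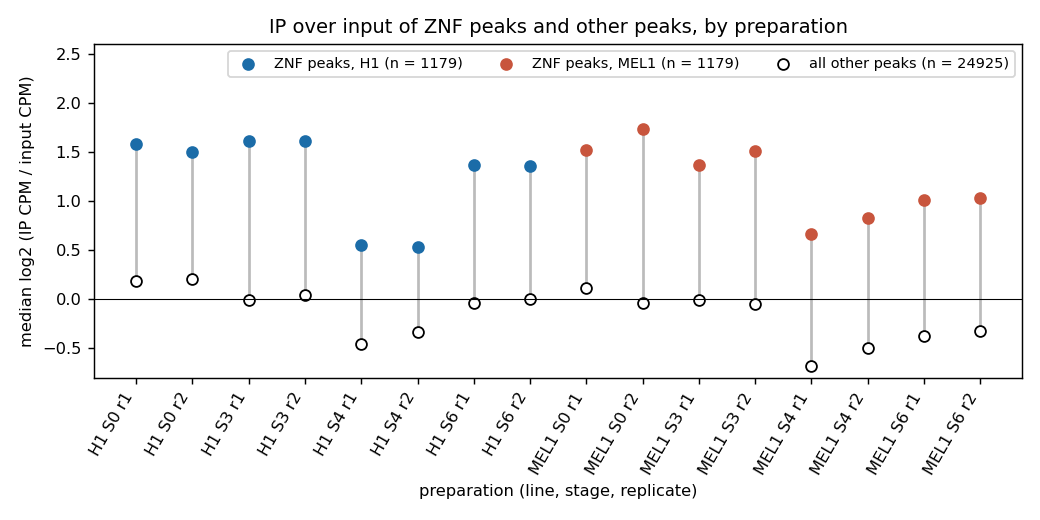
Median log2 IP over input of the 1179 ZNF peaks (filled points) and of the 24925 other peaks (open points) in each of the 16 preparations, joined by a grey line; line, stage and replicate (r1, r2) are on the horizontal axis. The ZNF median is above the other median in 16 of 16 preparations.

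The difference was seen in each of 4 bins of input level and 5 of position in the gene. Among peaks with up to 10 mean input reads, 61.6% of ZNF peaks and 38.1% of others were enriched at S0. With over 100 mean input reads the shares were 62.4% and 28.0%. By position, the shares at S0 were 38.1% of 21 ZNF peaks and 18.5% of others in the first 200 bases, and 62.5% and 31.5% above 1000 and up to 2500.

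Within the family, the share was larger on chromosome 19. Of 470 ZNF peaks on chromosome 19, 70.2% were enriched at S0, against 52.6% of 709 on other chromosomes, and against 20.4% of 1371 peaks in other genes of chromosome 19. At S4 both ZNF groups came closer, at 35.7% and 33.4%, and at 37.7% and 31.5% without H1 S4 replicate 2. Other zinc-finger families named by symbol lay between ZNF and the remaining genes at S0. ZSCAN and ZKSCAN genes, which carry a SCAN oligomerization domain, had 50.5% of 95 peaks enriched. ZFP genes had 49.3% of 69 and ZBTB genes, which carry a BTB domain, 41.8% of 134. All remaining peaks had 29.1%. At S4 the shares of ZSCAN and ZKSCAN (44.2%) and ZBTB (38.8%) were above that of ZNF, and they were 45.3% and 38.1% without H1 S4 replicate 2. These shares are descriptions, and the differences between families were not tested.

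**Figure D2:**
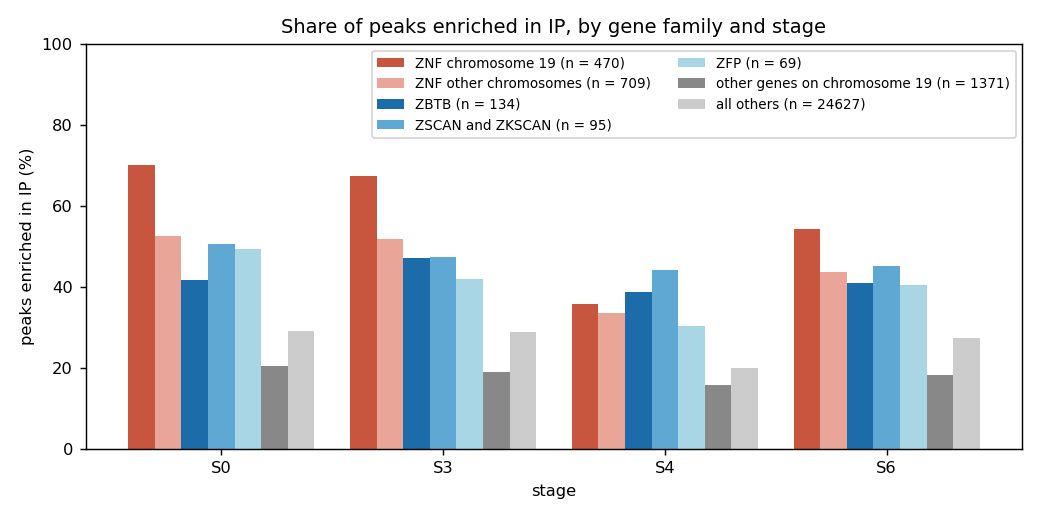
Percent of peaks enriched in IP over input (adjusted p under 0.1, at least 2-fold) at each stage, in ZNF genes of chromosome 19, ZNF genes of other chromosomes, 3 other zinc-finger families and the remaining genes; n in the key is the number of peaks. ZNF peaks of chromosome 19 lead at S0 (70.2%), S3 (67.4%) and S6 (54.3%), and at S4 ZSCAN and ZKSCAN peaks are higher.

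Among peaks with a mean of at least 10 input reads, the most enriched were in ZNF639, ZNF432, ZNF436, ZNF263 and ZNF248. The peak at position 2751 of ZNF263, which codes for a SCAN and KRAB zinc-finger protein, was the best measured of them. It held 52 and 55 input reads and 2342 and 2890 IP reads in H1 at S0, and 60 and 59 input reads and 2105 and 2655 IP reads in MEL1. Its log2 IP over input was 3.71 ± 0.32 (SE) at S0 and 3.85 ± 0.33 at S3, stood at 2.42 ± 0.31 at S4 (2.96 ± 0.30 without H1 S4 replicate 2) and was 4.00 ± 0.33 at S6, with edgeR adjusted p from 7.82e-11 to 2.12e-07. The IP reads of ZNF263 were over 1000 in each library except at MEL1 S4, where they were 355 and 268 in the shallow libraries. In ZNF263 the input reads of H1 S4 were 36 and 191, the second in the replicate that stood apart. ZNF639 at position 1751 reached 4.13 ± 0.59 (SE) at S0 and 4.31 ± 0.60 at S6, and stood at 2.74 at S4 and at 4.15 there without H1 S4 replicate 2. ZNF432 at position 2736 reached 5.16 ± 1.04 (SE) at S0, on 4 to 9 input reads. ZNF436 at 2093 had 2.92 to 3.89 over the stages and ZNF248 at 1490 had 2.89 to 3.74, and both were called at all 4. The S4 values, the lowest of each, were 4.19 for ZNF436 and 3.57 for ZNF248 without H1 S4 replicate 2.

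The lowest were ZNF511-PRAP1 at 251, ZNF664 at 851 and ZNF24 at 3958. ZNF664 at 851 had 9 to 98 input reads and 0 to 28 IP reads per library, although IP libraries were mostly the deeper. Its log2 IP over input was -3.55 ± 0.86 (SE) at S0 and -5.59 ± 0.93 at S6. ZNF664 also had the highest input level of the family, a mean of 345 CPM, followed by ZNF609 (303) and ZNF146 (283). ZNF24 at 3958 was not called at S0, where its IP reads were 5 and 4 in H1 and 51 and 82 in MEL1, and had no IP read in any of the 6 later MEL1 libraries.

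The next question was whether m6A in ZNF peaks changed between stages, that is, whether IP over input differed (the interaction of stage and library type). From S0 to S3 none of 1179 ZNF peaks was called by edgeR, with backgrounds of 0.0306% for higher and 0.0192% for lower. At an unadjusted p under 0.05 there were 43 of 1179, and DESeq2 called 3 (0.254%, against 0.640% of all peaks). No background is given for the unadjusted counts, so ZNF peaks are not compared with other peaks by them. From S3 to S4, 91 ZNF peaks (7.72%) were lower, background 5.85%, and 2 (0.170%) were higher, background 0.751%. The median change was -0.72 for ZNF peaks and -0.34 for others. From S4 to S6, 68 (5.77%) were higher, background 5.31%, and 12 (1.02%) were lower, background 2.26%. DESeq2 split the calls otherwise, with 60 lower and 21 higher from S3 to S4 and 60 higher and 53 lower from S4 to S6, 6.87% and 9.58% of ZNF peaks against 7.74% and 13.2% of all. From S0 to S6, 10 (0.848%) were lower, background 1.18%, and 0 were higher, background 0.0766%. An unadjusted p under 0.05 was seen for 115 of 1179 from S0 to S6, again without a background. DESeq2 called 43 there (3.65%, against 6.03% of all peaks), 2 of them higher.

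These counts depended on the scaling and on single preparations. From S3 to S4 in either direction, 7.89% of ZNF peaks were called against 6.60% of all. With RLE scaling the shares were 1.61% and 2.33%, and with IP and input normalized apart 2.71% and 2.77%. With H1 S4 replicate 2 left out, 40 ZNF peaks were lower and 1 was higher at S4 than at S3, which is 3.48% of ZNF peaks against 4.06% of all peaks called in that fit. From S4 to S6, 37 were higher and 9 lower, 3.90% against 5.60% of all. Without H1 replicate 1 at each stage the counts were 0 and 1 of 24 and 86 calls over all peaks, and without H1 replicate 2 they were 1 and 4 of 49 and 144. Leaving out any single replicate of either line, at each stage, gave 0 calls from S0 to S6, and leaving out H1 S4 replicate 2 alone gave 14 (1.19%, against 2.02% of all peaks). With each preparation as a block, which pairs its IP with its input library, 149 changed from S3 to S4 (12.6%, against 10.3% of all peaks) and 6 from S0 to S6 (0.509%, against 0.958%). The change from S3 to S4 itself differed between lines, by the interaction test, for 264 ZNF peaks, with 29.4% of all peaks as the background. It was higher in MEL1 for 178 (15.1%), background 14.0%, and lower in MEL1 for 86 (7.29%), background 15.4%. These were 154 (13.1%, against 14.1% of all peaks) and 83 (7.04%, against 14.1%) without H1 S4 replicate 2. In H1 alone 496 ZNF peaks (42.1%) were lower at S4 than at S3, background 30.4%, and 88 (7.46%) were higher, background 15.8%. With replicate 1 as the lone H1 S4 preparation, assumed to vary like the other stages, these were 468 (39.7%, against 31.4% of all peaks) and 119 (10.1%, against 17.6%). In MEL1 alone 57 (4.83%) were lower, background 7.97%, and 35 (2.97%) were higher, background 4.72%. The IP libraries of MEL1 S4 held 2378881 and 2483580 counts and those of H1 S4 11661733 and 13999180; the part of depth in this was not tested.

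Among named peaks, ZNF83 at position 2129 had fewer IP reads in each S4 library than in any other. Its IP reads in H1 were 99 and 95 at S0, 128 and 141 at S3, 2 and 5 at S4 and 61 and 90 at S6, and in MEL1 101 and 205, 95 and 158, 0 and 6, and 191 and 109. The input reads of ZNF83 there were 10 to 56 and did not drop to that extent at S4 (21, 39, 11 and 19). For ZNF83 the change was -4.17 ± 0.75 (SE) on the log2 scale from S3 to S4 (edgeR adjusted p = 0.00277) and 3.80 ± 0.74 from S4 to S6 (adjusted p = 0.00544). Both stayed called without H1 S4 replicate 2, at -4.02 ± 0.84 (edgeR adjusted p = 0.0168) and 3.64 ± 0.84 (adjusted p = 0.0226). ZNF431 at 1951 had 277, 396, 105 and 188 IP reads at S3 and 5, 5, 3 and 17 at S4, and changed by -3.79 ± 0.98 (SE, edgeR adjusted p = 0.0299). It was not called without H1 S4 replicate 2, at -3.13 ± 1.04 (edgeR adjusted p = 0.114). ZNF74 at 2551 had 11 to 18 IP reads at S3 and none at S4, and was not called without H1 S4 replicate 2 (edgeR adjusted p = 0.15). The fitted change of ZNF74 stayed about as large, at -5.31 with all preparations and -5.08 without that one. With no IP read at S4, these sizes are not exact. ZNF354A at 1898 (3.83 ± 0.90, SE) and ZNF10 at 2851 (3.62 ± 1.20) were, with ZNF83, the largest called rises from S4 to S6 among peaks with a mean of at least 10 input reads. ZNF10, known as KOX1, is the gene from which the KRAB repressor domain in common use was taken. The IP reads of ZNF10 at 2851 were 4, 10, 7 and 0 at S4 and 160, 203, 156 and 40 at S6. Without H1 S4 replicate 2, ZNF354A stayed called at 3.72 ± 1.02 (edgeR adjusted p = 0.0478) and ZNF10 did not, at 2.49 ± 1.41 (adjusted p = 0.358).

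ZNF503, a corepressor of the NET family also called NOLZ1, went the other way at position 1998. Its IP reads in H1 were 16 and 23 at S0, 1172 and 850 at S3, 27945 and 17590 at S4 and 931 and 1151 at S6, on 93 and 147 input reads at S4. In MEL1 they were 0 to 2 up to S3, 40 and 88 at S4 and 199 and 210 at S6. The change from S3 to S4 was 4.18 ± 1.29 (SE, edgeR adjusted p = 0.0648), and without H1 S4 replicate 2 it was not called, at 3.99 ± 1.48 (adjusted p = 0.156). The peak of ZNF503 at 2098 was called lower in MEL1 than in H1 over the stages (edgeR adjusted p = 0.0119). In MEL1 it held 0 input and 0 IP reads at S0 and 2 and 14 input reads at S3, so no fitted fold is given. ZNF609 at 7251 and ZNF664 at 3801 were lower in IP over input at S6 than at S0. For ZNF664 at 3801 the IP reads were 54, 59, 153 and 249 at S0 and 24, 28, 7 and 11 at S6, while the input reads were 51 to 95 and 83 to 142. Its change was -3.39 ± 0.80 (SE, edgeR adjusted p = 0.0625). ZNF770 at 3890 had 412 to 1626 IP reads at S0 and 14 to 58 at S6, and its change was -3.53 ± 0.94 (SE, edgeR adjusted p = 0.0877). These 3 are among the 10 calls from S0 to S6, none of which was made with the same replicate of a line left out at each stage.

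Between lines, over the stages, 23 ZNF peaks (1.95%) had lower IP over input in MEL1, background 3.60%, and 4 (0.339%) had higher, background 0.559%. DESeq2 called 30 lower and 52 higher in MEL1, together 6.96% of ZNF peaks against 8.51% of all peaks. The balance of directions among ZNF calls thus turned with the tool. The split of all peaks by direction under DESeq2 is not given here. ZNF417 at 2805 was among those that were higher in MEL1, by 1.17 ± 0.25 (SE, edgeR adjusted p = 0.0156). ZNF417 and its paralog ZNF587 code for KRAB proteins that bind the HERV-K provirus. Between lines 11 ZNF peaks (0.933%, against 1.48% of all peaks) differed without H1 S4 replicate 2. Without H1 replicate 1 at each stage 1 did (0.0848%, against 0.0498% of all peaks), and likewise 1 without H1 replicate 2 (0.0848%, against 0.0230%). There were 46 (3.90%, against 4.91%) without MEL1 replicate 1, 5 (0.424%, against 0.506%) without MEL1 replicate 2, and 52 (4.41%, against 8.05%) with the preparation block.

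Input levels were then compared between stages. They are sums of input counts over the peaks of a gene and were tested over all 7973 genes with at least 10 counts, which kept all 304 ZNF genes. From S0 to S3, 29 ZNF genes (9.54%) rose, background 15.0%, and 41 (13.5%) fell, background 13.8%. From S0 to S6, 34 (11.2%) rose, background 17.5%, and 63 (20.7%) fell, background 13.8%. Between later stages few changed. From S3 to S4, 1 rose (0.329%, background 1.49%) and 1 fell (0.329%, background 0.351%). From S4 to S6, 3 rose (0.987%, background 2.85%) and 4 fell (1.32%, background 2.33%). From S0 to S6 on chromosome 19, 37 of 135 ZNF genes (27.4%) fell and 10 rose, against 26 falls and 24 rises among 169 on other chromosomes and 35 falls and 62 rises among 429 other genes of chromosome 19. The difference between chromosomes was not tested. Without MEL1 replicate 1 at each stage, 45 ZNF genes (14.8%, against 22.5% of all genes) in place of 70 changed from S0 to S3.

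The ZNF genes with the largest rise code for factors outside the KRAB group. ZNF703, the other NET family corepressor, known from luminal breast cancer, stood at 5.56 and 6.59 CPM in H1 and 2.67 and 5.44 in MEL1 at S0, and at 275, 261, 108 and 115 CPM at S3. All S3 libraries of ZNF703 were above all S0 libraries, with a change of 5.15 ± 0.27 (SE) on the log2 scale (edgeR adjusted p = 2.41e-09), and 4.55 ± 0.26 from S0 to S6. ZNF503 stood at 8.70 and 10.5 CPM at S0 and 353 and 389 at S4 in H1, and at 0.206 and 0 and then 44.1 and 69.0 in MEL1. It was the single ZNF gene that rose from S3 to S4, by 2.20 ± 0.52 (SE, edgeR adjusted p = 0.0485), and without H1 S4 replicate 2 it was not called, at 2.24 ± 0.58 (adjusted p = 0.101), and no other ZNF gene rose there. ZNF467, on 1 read in all at S0 (0 to 0.227 CPM), had 16 to 21 reads per library at S6 (3.20 to 8.47 CPM), and no ratio is given on so few reads.

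ZNF808 and ZNF143 were not analysed here. ZNF398, a factor tied to the pluripotent state, fell. Its input level was 116, 107, 204 and 220 CPM at S0 and 28.2 to 33.8 CPM at S3, without overlap, a change of -2.30 ± 0.23 (SE, edgeR adjusted p = 1.86e-06). It was still lower at S6, by 1.46 ± 0.22 (SE). ZNF281 fell from 152 to 293 CPM at S0 to 79.9 to 98.8 at S6, by 1.20 ± 0.20 (SE, edgeR adjusted p = 0.000194). ZNF217 had -0.84 ± 0.20 (SE) at S6, under the 2-fold limit. ZNF462 had -0.11 ± 0.25 at S3 and -0.24 ± 0.25 at S6 and did not pass the test. ZNF462 went opposite ways in the lines. It stood at 44.9 and 36.8 CPM at S0 and 60.5 and 71.3 at S3 in H1, and at 70.3 and 53.8 and then 35.5 and 32.3 in MEL1, and its change differed between lines (edgeR adjusted p = 9.06e-05). ZNF121 fell from 123 and 125 CPM in H1 and 234 and 291 in MEL1 at S0 to 39.8 and 45.1 and to 20.3 and 20.8 at S3. ZNF331, a gene imprinted in many tissues, fell by 1.70 ± 0.22 (SE) from S0 to S6, while ZNF445, which helps to keep imprints, had 0.37 ± 0.24 and did not pass (-0.076 in MEL1 alone).

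ZNF649, a KRAB gene, stood at 197 and 198 CPM in H1 and 74.9 and 52.0 in MEL1 at S0 and fell to 27.7 and 34.0 and to 7.10 and 8.47 at S6, a change of -2.99 ± 0.43 (SE, edgeR adjusted p = 5.67e-05). ZNF91, whose protein binds SVA elements, had 27.3 to 34.8 CPM at S0 and 41.1 to 43.7 at S6 and did not pass the 2-fold limit. ZNF417 and ZNF587 had -0.58 ± 0.20 and -0.32 ± 0.15 (SE) from S0 to S6, both under the 2-fold limit. ZNF202 fell by 1.61 ± 0.23 (SE, edgeR adjusted p = 6.20e-05). ZNF850 and ZNF300 were, with ZNF649, the largest falls to S6. ZNF300 had 45.7 and 36.8 CPM in H1 and 28.6 and 21.5 in MEL1 at S0, and 16.9 and 24.3 and 0.373 and 0 at S6. ZNF589 led the falls to S3, from 122 and 124 input reads in H1 and 271 and 192 in MEL1 to 46 and 37 and to 6 and 6. From S4 to S6, ZNF48 fell from 237 to 316 CPM to 115 to 151 CPM, and ZNF114 from 68 and 101 input reads in H1 and 238 and 285 in MEL1 to 19 and 28 and to 56 and 40. ZNF600 also fell (edgeR adjusted p = 0.0452), from 6 and 19 input reads in H1 and 13 and 14 in MEL1 to 5 and 2 and to 1 and 1. No fitted fold is given on so few reads. ZNF552 made the fourth fall. ZNF395, ZNF436 and ZNF620 rose, the last from 0 to 1 input reads per library at S4. ZNF436 went from 5.88 and 6.64 to 27.3 and 19.8 CPM in MEL1, and from 17.8 and 30.3 to 29.7 and 32.2 in H1. The rise of ZNF395 was in MEL1, from 42.4 and 31.7 to 179 and 177 CPM, while in H1 it stood at 108 and 86.4 CPM at S4 and 90.6 and 82.9 at S6, a change of -0.15 with H1 fitted alone. Without H1 S4 replicate 2, 6 ZNF genes rose and 5 fell from S4 to S6, 3.62% of ZNF genes against 6.85% of all genes called in that fit. ZNF765 was the single fall from S3 to S4, at -1.75 ± 0.43 (SE, edgeR adjusted p = 0.0546), and at -2.25 ± 0.46 (adjusted p = 0.0456) without H1 S4 replicate 2.

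**Figure D3:**
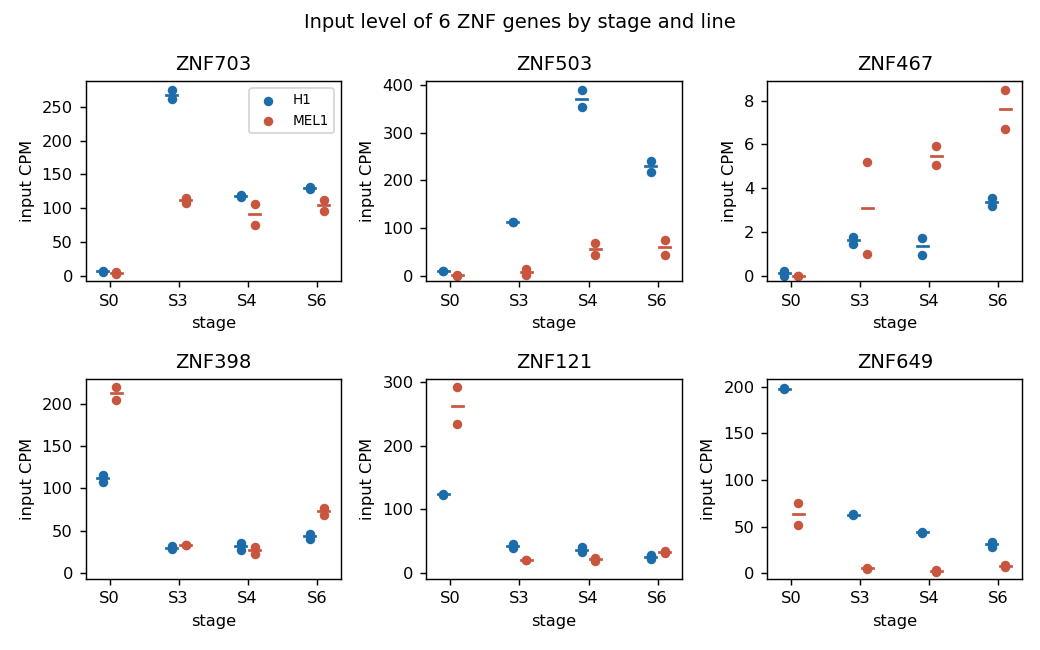
Input level in CPM of 6 ZNF genes at each stage in H1 (blue) and MEL1 (red); points are libraries (2 per line and stage) and short bars their means, and each panel has its own axis. ZNF703 and ZNF503 are above their S0 level at each later stage in H1, and ZNF398, ZNF121 and ZNF649 are below theirs in both lines.

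The partners through which KRAB proteins act were read from a list of 25 genes, 20 of them with a peak. From S0 to S3, 3 of the 20 fell, background 13.8%, and 1 rose, background 15.0%. From S0 to S6, 4 fell, background 13.8%, and 1 rose, background 17.5%. TRIM28 itself had -0.61 ± 0.17 (SE) to S3 and -0.84 ± 0.17 to S6, under the 2-fold limit. SETDB1 had 0.12 ± 0.17 to S6. The falls were DNMT3B, a DNA methyltransferase (-4.40 ± 0.30 to S6), ATF7IP, a cofactor of SETDB1 (-1.76 ± 0.20), CBX3, a heterochromatin protein (-2.29 ± 0.46), and at S6 the chromatin remodeller SMARCAD1 (-1.02 ± 0.37). CHD3 rose, by 2.05 ± 0.37. The median of the 20 was -0.26 to S3 and -0.64 to S6, against -0.02 and 0.03 over all genes tested.

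The stage change of ZNF input was not the same in both lines. Relative to other genes, the median ZNF level was 0.06 to 0.41 higher (log2, each gene centred on its mean over libraries) in all 8 H1 input libraries (0.06 to 0.26 in the 7 other than S4 replicate 2) and 0.34 and 0.19 higher in MEL1 at S0, but 0.10 to 0.39 lower in all 6 later MEL1 libraries. Fitted alone, 84 of 294 ZNF genes (28.6%) fell from S0 to S3 in MEL1, background 22.2%, and 35 (11.9%) rose, background 21.2%. In H1, 16 of 304 (5.26%) fell, background 10.1%, and 38 (12.5%) rose, background 12.9%. From S0 to S6, 93 (31.6%) fell in MEL1, background 19.4%, and 32 (10.9%) rose, background 21.4%, while in H1 29 (9.54%) fell, background 11.7%, and 42 (13.8%) rose, background 16.9%.

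**Figure D4:**
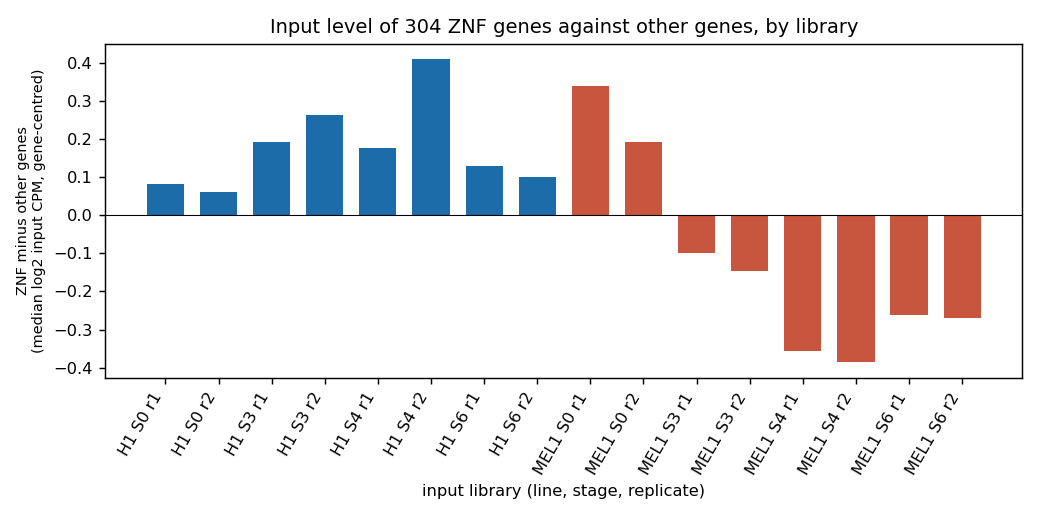
Median log2 input CPM of the 304 ZNF genes minus that of the other genes, each gene centred on its mean over the 16 input libraries (H1 blue, MEL1 red; r1 and r2 are replicates). The value is above 0 in all 8 H1 libraries and both MEL1 S0 libraries, and below 0 in all 6 later MEL1 libraries.

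The difference itself was tested as the interaction of line and stage (edgeR). The change from S0 to S3 differed between lines for 104 ZNF genes (34.2%) and for 34.0% of all genes. It was lower in MEL1 for 81 (26.6%), background 17.5%, and higher in MEL1 for 23 (7.57%), background 16.5%. The change from S0 to S6 was lower in MEL1 for 64 (21.1%), background 11.4%, and higher for 13 (4.28%), background 13.7%. Of the 81, 49 were on chromosome 19, which is 36.3% of the 135 ZNF genes there, against 18.9% of ZNF genes elsewhere and 8.16% of other genes of chromosome 19. Those other genes leaned the opposite way, with a higher change in MEL1 for 28.9%, background 16.5%. It was higher in MEL1 for 7.41% of ZNF genes on chromosome 19 and 7.69% of those elsewhere. With H1 replicate 2 left out at each stage, 69 ZNF genes (22.7%, against 23.8% of all genes) differed from S0 to S3. For S6 there were 49 (16.1%, against 17.4%) without H1 replicate 1 and 50 (16.45%, against 15.97%) without H1 replicate 2. The marker levels given above also differed between the lines. At S3 the undifferentiated markers summed to 1441 and 1491 CPM in H1 and to 284 and 291 in MEL1. The hepatic, neural, intestinal and mesenchymal lists differed as stated. The part of these markers in the line difference was not tested. The share of input counts in mitochondrial genes fell after S0 in MEL1 and after S3 in H1, and was lowest in H1 at S6. It was 32.5% and 41.0% at S0 and 12.9% to 16.5% later in MEL1, while in H1 it was 26.4% to 27.5% at S0 and S3, 15.4% and 17.7% at S4 and 11.6% and 11.8% at S6. Over the other counts alone, ZNF genes took 1.31% and 1.46% at S0 and 0.915% to 1.19% later in MEL1, and 1.28% and 1.29% at S0 and 1.49% to 1.98% later in H1. Taking both lines over all stages, 49 ZNF genes (16.1%) were lower in MEL1 than in H1, background 10.2%, and 12 (3.95%) were higher, background 8.85%. ZNF28, ZNF114 and ZNF385A were the largest of those higher in MEL1, with ZNF114 at 133 and 152 CPM in MEL1 and 31.7 and 31.9 in H1 at S3.

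Some ZNF genes fell to 0 or few input counts in MEL1. A gene was counted as lost when each MEL1 input library at S0 held at least 10 counts and each of the 6 later ones at most 3. Of 241 ZNF genes that qualified at S0, 11 (4.56%) were lost, against 16 of 6370 other genes (0.251%) and a background of 0.408% over all genes. The 11 were ZNF141, ZNF253, ZNF485, ZNF501, ZNF528, ZNF528-AS1, ZNF594, ZNF69, ZNF737, ZNF747-DT and ZNF93, 6 of them on chromosome 19. Lost here means few input reads, and some of these transcripts were still read in the later MEL1 IP libraries. Per library these held 4 to 69 IP reads of ZNF141, 8 to 58 of ZNF485, 4 to 103 of ZNF69 and 0 to 49 of ZNF501. ZNF747-DT had 0 to 19, and ZNF528, ZNF528-AS1 and ZNF594 had 0 to 11. Counted the same way in the IP libraries, with reads summed over the peaks of a gene, 6 of 294 ZNF genes (2.04%) were lost, against 6 of 7011 others (0.0856%) and a background of 0.164%. In H1 no gene was lost by this rule, of 246 ZNF and 6516 other genes in input and 300 and 7422 in IP. Of the 11, 8 held more than 3 input reads in every later H1 library. The rest were ZNF485 with 2 to 9, ZNF594 with 3 to 18 and ZNF747-DT with 0 to 13. ZNF141, ZNF485, ZNF528, ZNF594 and ZNF747-DT had 0 to 9 input reads per H1 S0 library and ZNF737 had 6 and 10. These could thus not qualify in H1. In MEL1, ZNF253, ZNF93 and ZNF737 were lost in both kinds of library, and ZNF429, ZNF486 and ZNF677 in IP. This rule was set after the values had been seen, and with the input libraries thinned to 2652830 counts 2 of 203 qualifying ZNF genes (0.985%) met it in input, against 12 of 5542 other genes (0.217%). With the IP libraries thinned to 2378881 counts 9 of 274 (3.28%) met it, against 8 of 5975 (0.134%).

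ZNF253, ZNF93, ZNF486 and ZNF737 follow each other among the ZNF genes of chromosome 19 that have a peak, in RefSeq order, and all 4 had no input read in any of the 6 later MEL1 libraries. ZNF253 had 131 and 91 input reads in H1 and 23 and 28 in MEL1 at S0. It had 84 to 240 in the 6 later H1 libraries and 0 in each of the 6 later MEL1 libraries. The later H1 level was at least 30.6-fold higher, taking 3 counts per library as the floor in MEL1. In the IP libraries ZNF253 had 328 to 2130 later reads in H1 and 0 in MEL1, where S0 had 184 and 311. ZNF93, whose protein binds LINE-1 elements, had 13 and 15 input reads in MEL1 at S0 and 0 later, and 24 to 82 in H1 later, at least 8.71-fold higher. ZNF737 had 21 and 13 in MEL1 at S0 and 0 later, while in H1 it stood at 6 and 10 at S0 and 26 to 69 later, at least 7.08-fold higher than MEL1. ZNF486 had 9 and 9 input reads in MEL1 at S0, under the limit of 10, and 0 later; its IP reads there went from 326 and 465 to 0 to 2. ZNF85, the next member in that order, held 26 and 30 reads in MEL1 at S0 and 3 to 11 later. ZNF91, further along the chromosome, held 166 and 160 reads at S0 and 89 to 153 later, while its CPM was 32.7 to 45.4.

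**Figure D5:**
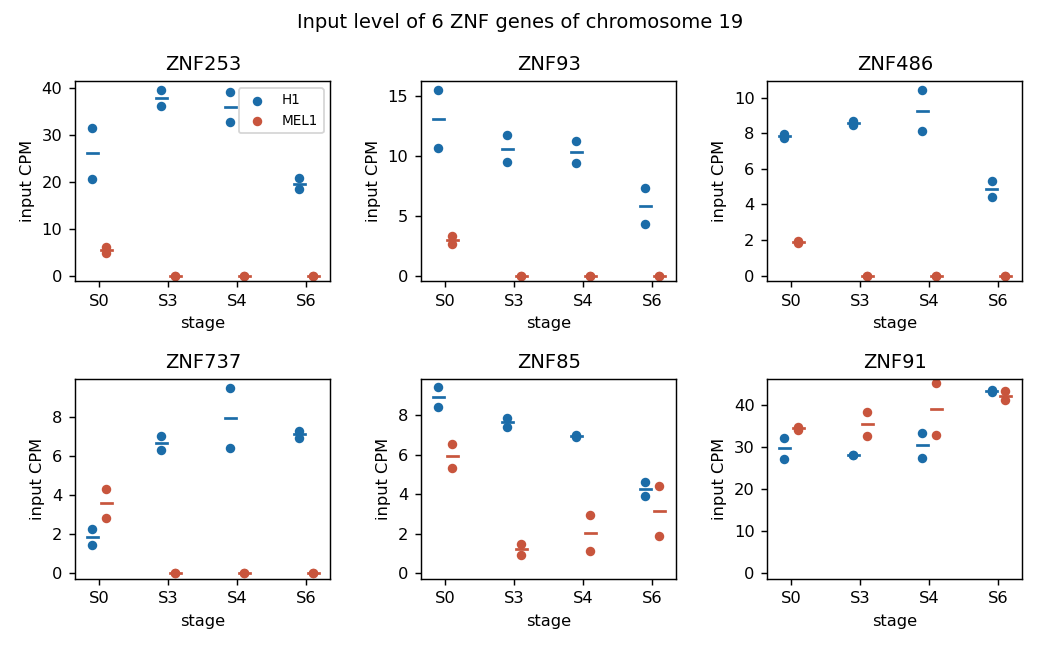
Input level in CPM of ZNF253, ZNF93, ZNF486, ZNF737, ZNF85 and ZNF91 by stage in H1 (blue) and MEL1 (red); points are libraries (2 per line and stage) and short bars their means, and each panel has its own axis. The first 4 are at 0 in each of the 6 later MEL1 libraries and above 0 in each H1 library, and ZNF91 overlaps between lines at S6.

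Outside this run, ZNF528 and its antisense RNA ZNF528-AS1 were lost together. ZNF528 had 22 and 18 input reads in MEL1 at S0, 0 in each later MEL1 library and 15 to 50 in the later H1 libraries. ZNF528-AS1 had 43 and 48, 0 to 1 and 103 to 263, and whether the counting used strand is not given in the sources used here. Its IP reads in MEL1 went from 558 and 596 to 0 to 9. ZNF677 and ZNF432, with ZNF253 the genes with the largest difference between lines, had 1 to 6 input reads in MEL1 at S0. That is too few to call a loss in input, but their later MEL1 input libraries held 0 to 2 and those of H1 13 to 132. In MEL1 the IP reads of ZNF677 went from 182 and 210 at S0 to 0. Those of ZNF432 went from 322 and 411 to 0 to 97, so it was still read there. Away from chromosome 19, ZNF501 on chromosome 3 and ZNF594 on chromosome 17 had 23 and 31 reads and 21 and 17 reads in MEL1 at S0 and 0 to 1 later. ZNF649, also on chromosome 19, stood in later MEL1 libraries at 1.26 to 8.47 CPM without reaching 0. ZNF521, a factor of progenitor cells, differed in the course of its level. It stood in H1 at 15.5 and 16.9 CPM at S0 and 43.8 and 45.7 at S3, and in MEL1 was at 6.96 and 9.25 at S0, 0 and 0.677 at S3 and 11.8 and 9.96 at S4.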

How the data were processed

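mRNA was sonicated, an input portion was kept, and the rest was precipitated with an m6A antibody; stranded libraries were sequenced on an Illumina NovaSeq. The authors mapped the reads, counted them in 50-base bins of the genes of Ensembl version 94, and called and merged peaks with MeRIPtools. They deposited raw read counts per merged peak and library; the aligner and genome build are not given in the sources used here. Symbols came from Ensembl IDs by a name table, which held 7938 of 7978 genes. The members, lists and tests were chosen with earlier results of these data known.

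All tests used edgeR 4.0.16 (R 4.3.3), the quasi-likelihood test, TMM scaling, rows with a total of at least 10 counts, and Benjamini-Hochberg adjustment over all rows. A call needed an adjusted p under 0.1 and a 2-fold difference. Peaks were fitted with a mean for each stage and library type plus line (32 libraries), and IP over input was compared between stages as an interaction. Input levels of genes were sums over their peaks, fitted with stage and line (16 libraries). Whether lines differed in a stage change was tested in a fit with 1 coefficient for every combination of line and stage. In that last fit the p-values measure the spread between 2 preparations per line and stage. In the fits that add line to stage, the spread also holds differences between lines in a stage change. Medians per preparation used log2 CPM with a prior count of 1. Input and IP of a preparation are paired by the protocol. Replicate numbers were not taken to pair stages, since not every correlation of the replicate differences between stages was over 0.1: they were -0.00784 to 0.0522 in H1 and 0.0656 to 0.128 in MEL1, where 4 of 6 were over it.

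Named were fixed genes of known role, the 3 called genes or peaks with the largest rise and fall in each comparison (mean of at least 1 CPM or 10 input reads), and the 5 peaks with the highest and 3 with the lowest mean enrichment. ZNF114, ZNF28 and ZNF385A come from that rule. ZNF69, ZNF85, ZNF141, ZNF429, ZNF485, ZNF486, ZNF528, ZNF528-AS1, ZNF552, ZNF594, ZNF620, ZNF737 and ZNF747-DT were chosen after their values were seen. Scripts were tested on simulated counts. DESeq2 1.42.0, other scaling and filters, a preparation or replicate block, each line alone, and leaving out replicates were tried as alternatives; thinning, the interaction settings and leaving out S4 preparations were added after the data had been seen. Counting limits (floor of 3 counts per library) cover counting error only.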

Additional observations from a re-analysis of the deposited data

Results flagged for a closer look

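These results were singled out because the change between stages differed between H1 and MEL1 by the test of the difference itself (edgeR, Benjamini-Hochberg adjusted p over all rows). The change in input level from S0 to S3 differed for 104 ZNF genes (34.2%) and that from S0 to S6 for 77 (25.3%), close to the shares of all genes (34.0% and 25.1%).

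Values are the MEL1 change minus the H1 change on the log2 scale. From S0 to S3, ZNF462 had -1.56 (edgeR adjusted p = 9.06e-05) and ZNF649 -1.94 (edgeR adjusted p = 6e-05). ZNF121 had -2.13 (edgeR adjusted p = 1.17e-06), ZNF589 -3.28 (edgeR adjusted p = 0.000106) and ZNF10 -2.34 (edgeR adjusted p = 0.00353). ZNF501 had an edgeR adjusted p of 0.00248, ZNF93 of 0.00136 and ZNF521 of 1.18e-07; all 3 are near or at 0 reads in MEL1 at S3, so no fitted fold is given. From S0 to S6, ZNF10 had -2.99 (edgeR adjusted p = 0.00126). No fitted fold is given for ZNF850 (edgeR adjusted p = 0.0363, 3 and 2 MEL1 reads at S6), for ZNF300 (edgeR adjusted p = 1.64e-05, 0 and 1 MEL1 reads at S6), for ZNF93 (edgeR adjusted p = 0.0239, 0 MEL1 reads at S6) or for ZNF503 (edgeR adjusted p = 0.0295, 0 and 1 MEL1 reads at S0), the last of which differed the other way.

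In IP over input, ZNF664 at 3801 differed from S0 to S6 by -2.86 (edgeR adjusted p = 0.0942). ZNF777 at position 1634 differed from S3 to S4 (edgeR adjusted p = 0.0722), on MEL1 IP reads of 5 and 0 at S3 and 3 and 44 at S4, so no fitted fold is given. From S4 to S6, ZNF609 at 7251 (edgeR adjusted p = 0.081) and ZNF618 at 4451 (edgeR adjusted p = 0.00203) differed, both with 0 IP reads in MEL1 at S6. These differences between lines were tested over all preparations. Without H1 S4 replicate 2, the change of both lines together lost its call for ZNF777 from S3 to S4 (edgeR adjusted p = 0.128) and for ZNF609 from S4 to S6 (edgeR adjusted p = 0.105). The fitted changes of both lines together did not shrink, on few MEL1 IP reads. They went from 3.11 to 3.14 for ZNF777 and from -4.86 to -5.22 for ZNF609.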

How the results depend on the processing

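The numbers of ZNF peaks enriched in IP stayed within 1.5 times at each stage under every alternative run. Alternatives are compared with counts of calls in the main design, and causes of changes were not tested. With DESeq2, 3 ZNF peaks changed in m6A from S0 to S3, 43 from S0 to S6, and 82 between lines (6.96%, against 8.51% of all peaks). With RLE scaling there were 19 (S3 to S4), 49 (S4 to S6), 2 (S0 to S6) and 13 (lines), or 1.61%, 4.16%, 0.170% and 1.10%, against 2.33%, 6.41%, 0.341% and 1.92% of all, and with IP and input normalized apart 32 (S3 to S4), 0 (S0 to S6) and 13 (lines), or 2.71%, 0% and 1.10%, against 2.77%, 0.249% and 1.85%. With the preparation as a replicate block there were 149, 6 and 52 for S3 to S4, S0 to S6 and lines; for input levels, with the replicate number as a block, 1 gene changed from S3 to S4 and 4 from S4 to S6 (0.329% and 1.32%, against 1.17% and 4.23% of all genes). In H1 alone, m6A changed for 52, 584, 491 and 110 ZNF peaks (S0 to S3, S3 to S4, S4 to S6, S0 to S6), or 4.41%, 49.5%, 41.6% and 9.33%, against 6.09%, 46.2%, 41.6% and 10.8% of all peaks, and input for 19 (S3 to S4) and 13 genes (S4 to S6), or 6.25% and 4.28%, against 7.42% and 9.36% of all genes. In MEL1 alone m6A changed for 41 (S0 to S3, 3.48%, against 8.80% of all) and 60 peaks (S0 to S6, 5.09%, against 10.9%), and input for 119, 11 and 27 genes (S0 to S3, S3 to S4, S4 to S6), or 39.1%, 3.62% and 8.88%, against 43.5%, 9.61% and 15.8%. Without the MEL1 S4 preparations 300 and 236 peaks changed from S3 to S4 and from S4 to S6 (25.4% and 20.02%, against 20.9% and 19.2% of all). Without H1 S4 replicate 2 these were 41 and 46, 11 differed between lines, and input changed for 1 and 11 genes (0.329% and 3.62%, against 1.24% and 6.85% of all genes).

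Leaving out each replicate of a line in turn gave 0 to 74 peaks for m6A from S3 to S4 (0% to 6.28%, against 0.0919% to 5.18% of all peaks), 1 to 57 from S4 to S6 (0.0848% to 4.83%, against 0.329% to 5.33%), 0 from S0 to S6, where leaving out H1 S4 replicate 2 alone gave 14 (1.19%, against 2.02%), and 1 to 46 between lines (0.0848% to 3.90%, against 0.023% to 4.91%). For input it gave 45 to 89 genes from S0 to S3 (14.8% to 29.3%, against 22.1% to 32.1% of all genes), 0 to 1 from S3 to S4 (0% to 0.329%, against 0.339% to 0.791%) and 1 to 9 from S4 to S6 (0.329% to 2.96%, against 1.59% to 5.68%). The change that differs between lines was called for 69 to 118 genes from S0 to S3 (22.7% to 38.8%, against 23.8% to 36.2%) and 49 to 92 from S0 to S6 (16.1% to 30.3%, against 15.97% to 28.5%). The mean difference in enrichment was 1.76, 1.89, 1.62 and 1.75 by stage with a mean of at least 50 input reads, and 1.26, 1.32, 0.97 and 1.18 with a prior count of 5. Thinned libraries left 2 lost genes in input.

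Directions turned in H1 alone for ZNF462 (0.67 at S3, 0.23 at S6), ZNF521 (1.45), ZNF423 (0.66), ZNF417 (0.070) and ZNF10 (0.11 at S3, 0.37 at S6), and from S4 to S6 for ZNF395 (-0.15) and ZNF106 at 11377 (0.24). In MEL1 alone they turned for ZNF423 (-1.26) and ZNF445 (-0.076) at S6, and with the block for ZNF423 at S3 (0.19). With a replicate left out the value at S3 ran from -0.50 to 0.21 for ZNF462, -0.98 to 0.69 for ZNF521, -0.37 to 0.99 for ZNF423, -0.0873 to 0.045 for ZNF91 and -0.17 to 0.055 for ZNF417, and between lines from -0.046 to 0.18 for ZNF281 and from -0.10 to 0.23 for ZNF331. Of the values of named genes and peaks under alternatives, 1289 kept direction and side of the threshold, 137 lost the call, 12 gained it and 22 turned.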
